A study of Homo sapiens with 24 samples.

Results

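YAP, TEAD and Hippo output genes were followed by PRO-seq in T47D cells in which the repressor TRPS1 can be degraded. The 10 genes were taken from the gene count table by symbol. They are the coactivator genes YAP1 and WWTR1 (encoding TAZ), the TEAD genes TEAD1, TEAD3 and TEAD4, the TEAD cofactor gene VGLL4, the kinase gene LATS2, and the output genes AMOTL2, CCN1 and CCN2. These are 10 of the 60605 genes counted. PRO-seq maps RNA polymerases engaged in transcription, so its values are nascent transcription and not messenger RNA level.

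T47D is a luminal, estrogen receptor positive breast cancer cell line. Clones 28, 35 and 39 carry a degron tag on TRPS1, a GATA-type zinc finger protein that binds DNA and represses transcription. Each clone was treated for 90 minutes with DMSO (0.1% by volume) or with 100 nM dTAG-13, a small molecule that directs the tagged protein to degradation. There were 4 replicates per clone and treatment, and so 6 groups and 24 libraries. Treated and control cells of a clone alike expressed TRPS1 protein only in its tagged form, since their remaining TRPS1 copies had been knocked out, and each clone is a single line grown from 1 edited colony. The p-values below therefore measure the spread between libraries of a line, and a difference between clones is a difference between 3 lines. Untagged T47D cells were not analysed here.

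The Hippo pathway is a kinase cascade that restrains growth. Its upstream kinases activate the LATS kinases, which phosphorylate YAP and TAZ and hold them in the cytoplasm, and YAP and TAZ that escape this enter the nucleus and bind TEAD proteins at enhancers and promoters. Among the best known genes switched on in this way are CCN1 and CCN2, which encode matricellular proteins, and AMOTL2 and LATS2, whose products feed back to restrain YAP. In breast epithelium, high YAP and TEAD activity is known mainly from basal and mesenchymal cells.

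Totals ran from 3226718 to 9575803 counts per library, with a median of 5042122. The Clone 39 libraries were the shallowest as a group, at 3226718 to 5293723 counts. The luminal genes ESR1, GATA3, FOXA1, KRT8, KRT18, KRT19, EPCAM and PGR were transcribed in every library, TFF1 was low, and the basal keratin genes KRT5 and KRT14 had at most 2 and 5 counts, while TP63, a transcription factor gene of basal cells, had 22 to 192. TRPS1 itself had 23280 to 69958 counts per library. In 12 of 12 pairs of clone and replicate number the dTAG-13 library had the higher TRPS1 level, against 0.56% of all genes with 12 pairs in 1 direction, and the log2 difference was 0.19 (edgeR adjusted p = 0.733, and 6.65e-04 with the pairs as a block). A degron acts on the protein, so this transcript does not check the depletion.

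The consensus site of TEAD proteins reads GGAATG, or CATTCC on the other strand. RefSeq windows of the 250 bases before an annotated start (GRCh38.p14) were found for 7 of the 10 genes, 13 windows in all. CCN1, TEAD1 and TEAD4 had no window and so were not searched. CCN2, AMOTL2 and YAP1 held the motif. Their windows are shown because AMOTL2 and CCN2 are outputs whose promoters both carry these letters, while their signal per length was among the highest and the lowest of the 10 genes, as given below. Capitals mark the motif on either strand, each sequence runs 5′ to 3′ along the gene's own strand, and the last base adjoins the start.

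The CCN2 window lies at chr6:131951373-131951622 on the minus strand and holds the motif 3 times, beginning 169, 104 and 95 bases before the start.
CCN2: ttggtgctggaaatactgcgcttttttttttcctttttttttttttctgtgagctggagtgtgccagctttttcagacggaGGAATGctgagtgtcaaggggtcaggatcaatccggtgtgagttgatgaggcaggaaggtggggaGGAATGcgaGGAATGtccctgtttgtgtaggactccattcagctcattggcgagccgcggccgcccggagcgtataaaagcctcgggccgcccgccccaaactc

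The AMOTL2 window lies at chr3:134374448-134374697 on the minus strand and holds it 1 time, 69 bases before the start, as CATTCC.
AMOTL2: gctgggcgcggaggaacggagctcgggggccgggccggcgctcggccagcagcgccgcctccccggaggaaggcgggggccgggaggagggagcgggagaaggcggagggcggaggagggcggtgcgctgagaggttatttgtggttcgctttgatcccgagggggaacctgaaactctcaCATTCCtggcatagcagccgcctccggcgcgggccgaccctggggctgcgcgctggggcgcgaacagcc

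The YAP1 window lies at chr11:102110197-102110446 on the plus strand and holds it 1 time, 162 bases before the start.
YAP1: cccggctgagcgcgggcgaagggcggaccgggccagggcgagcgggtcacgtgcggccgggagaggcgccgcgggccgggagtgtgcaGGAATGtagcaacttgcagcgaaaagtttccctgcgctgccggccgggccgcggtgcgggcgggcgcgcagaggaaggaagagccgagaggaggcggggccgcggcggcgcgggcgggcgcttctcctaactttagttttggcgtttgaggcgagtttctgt

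The letters GGAATG or CATTCC occurred in 11.9% of all 35116 such windows, so a single match is common. The windows of WWTR1, TEAD3, VGLL4 and LATS2 and the other AMOTL2 window did not contain them. GATAA, the core of GATA-type sites, occurred on either strand in 1 of 2 WWTR1 windows and 1 of 5 VGLL4 windows, and in 20.4% of all windows. TGANTCA, the AP-1 motif, was in none of the 13 windows and in 6.57% of all. A match is a description of letters, and factor binding was not measured in these libraries.

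The 10 genes spanned a wide range of signal. In the 12 DMSO libraries CCN1 was highest per length, at 17.4 ± 5.15 CPM (counts per 1000000 scaled library counts) per kb (SD, n = 12), followed by AMOTL2 at 7.16 ± 0.617. YAP1 had 2.32 ± 0.218 CPM per kb and TEAD3 1.85 ± 0.140, and each of these 4 genes was above the next in 12 of 12 libraries. VGLL4 had 1.16 CPM per kb, LATS2 0.897 and TEAD4 0.871, and these neighbours were not separated in order: VGLL4 exceeded LATS2 in 8 of 12 libraries and LATS2 exceeded TEAD4 in 6 of 12. TEAD1 had 0.606 CPM per kb and exceeded WWTR1, at 0.464, in 8 of 12 libraries. YAP1 thus had more signal per length than WWTR1, and TEAD3 more than TEAD4 or TEAD1, in every DMSO library. Length here is that of the whole annotated gene, from 3.197 kb for CCN2 to 270 kb for TEAD1. In CPM not divided by length the TEAD order reversed, with means over all 24 libraries of 160 for TEAD1, 69.4 for TEAD4 and 42.6 for TEAD3. YAP1 stayed above WWTR1, at 288 against 102 CPM. CCN1, the highest per length, had a mean of only 65.4 CPM, below TEAD4. Its rank per length thus rests on its short gene of 3.829 kb.

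CCN2 stood apart from the other output genes. The CCN2 gene (ENSG00000118523, chr6:131948176-131951372, minus strand) had 0 to 5 counts in a library. In Clone 28 its counts were 1, 0, 3 and 1 in DMSO and 0, 3, 1 and 1 with dTAG-13. In Clone 35 they were 1, 0, 1 and 2 in DMSO and 5, 0, 0 and 1 with dTAG-13. In Clone 39 they were 1, 0, 0 and 0 in DMSO and 1, 1, 2 and 1 with dTAG-13. These values lie at the limit of detection and their ranges overlapped in Clones 28 and 35, while in Clone 39 the ranges met at 1 count. The sums were 10 counts in the 12 DMSO libraries (exact Poisson 95% interval 4.80 to 18.4) and 16 in the 12 dTAG-13 libraries (9.15 to 26.0), intervals that cover counting error only. CCN2 did not pass the filter on low counts, so it entered no test, and a change in its transcription was not detectable at this depth. The antisense gene LINC01013, which spans all of CCN2, had 0 to 6 counts. The other 9 genes had at least 123 counts in every library and were tested.

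**Figure D1:**
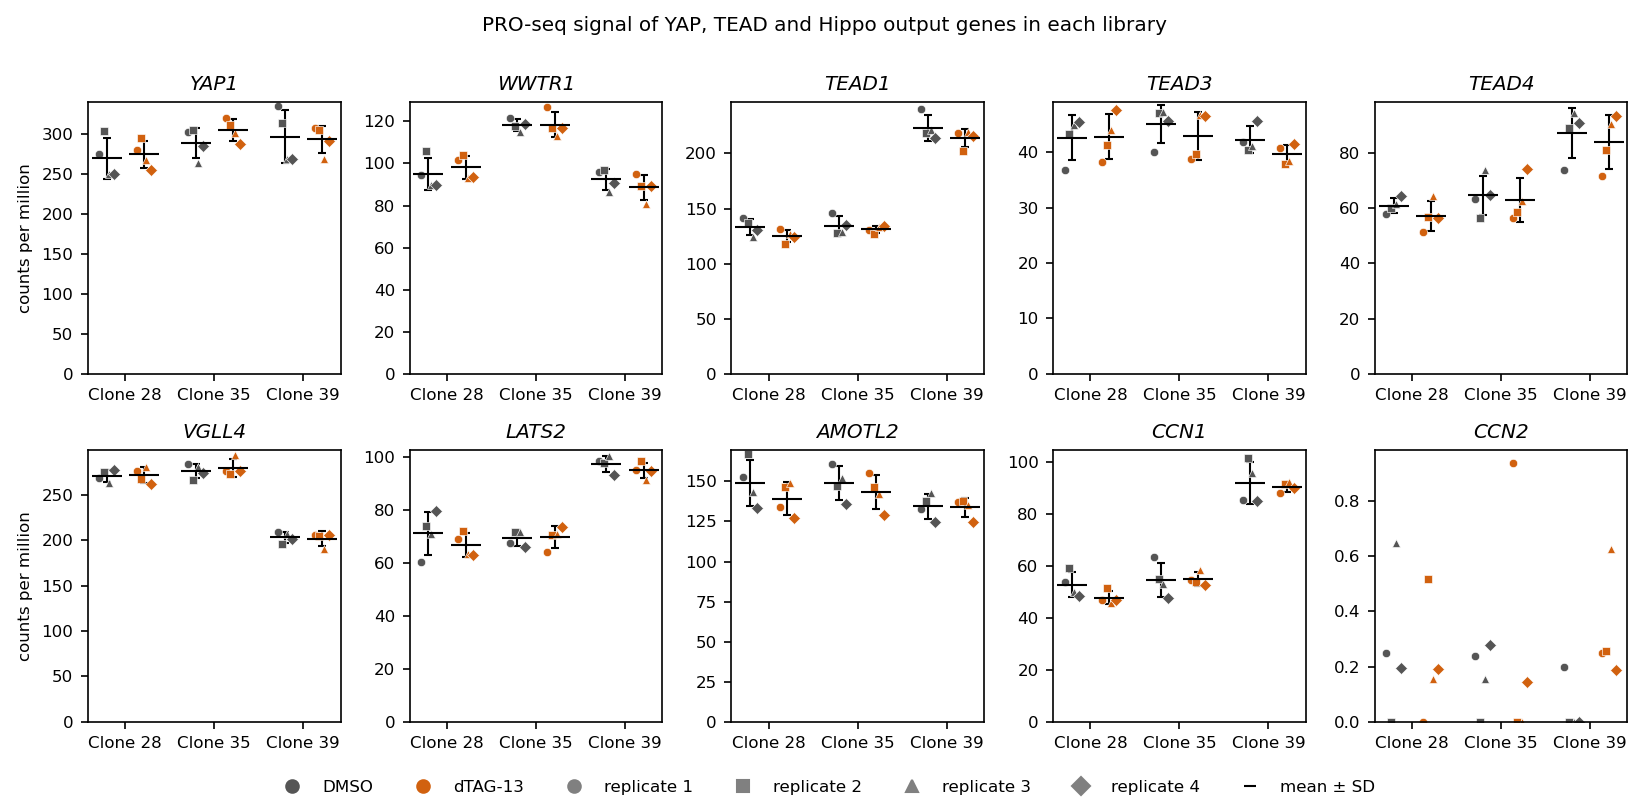
PRO-seq signal of the 10 genes in each of the 24 libraries, in CPM (linear axes from 0), by clone and treatment. Points are libraries, shaped by replicate number, and bars give the mean ± SD of 4 libraries (none for CCN2). TEAD1, TEAD4, LATS2 and CCN1 sit higher in Clone 39, VGLL4 sits lower there, and WWTR1 sits higher in Clone 35, while DMSO and dTAG-13 points overlap for every tested gene.

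The first comparison asked whether 90 minutes with dTAG-13 changed the transcription of these genes. PRO-seq does not measure TRPS1 protein, so the depletion reached in these cells is not known from these data. None of the 9 tested genes changed over the 3 clones (edgeR adjusted p under 0.1), when 0.551% of all 22326 genes tested did, and none had an unadjusted p under 0.05. DESeq2 also called 0 of them. With each pair of clone and replicate number as a block 0 of 9 were called as well, against 2.33% of all genes, and 1, TEAD1, had an unadjusted p under 0.05. Fold changes were small in both directions: 7 of the 9 log2 differences were below 0, with a median of −0.04, where the median over all genes was 0.00.

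Of the coactivator genes, YAP1 (ENSG00000137693, chr11:102110447-102233424, plus strand) had 275, 304, 249.6 and 251 CPM in Clone 28 with DMSO and 280.0, 295, 267 and 256 with dTAG-13. In Clone 35 the values were 303, 305, 264 and 285 in DMSO and 321, 311, 302 and 288 with dTAG-13. In Clone 39 they were 335, 313, 269 and 269 in DMSO and 307, 305, 269 and 292 with dTAG-13. The treated and control values overlapped in each clone, and in 9 of 12 pairs the treated library was the higher. The log2 difference of YAP1 was 0.03 (95% interval −0.05 to 0.11, adjusted p = 1.00). WWTR1 (ENSG00000018408, chr3:149517235-149736714, minus strand), which encodes the YAP paralog TAZ, lay above its control in 4 of 12 treated libraries, and its difference was 0.00 (−0.08 to 0.07).

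The TEAD genes encode the DNA-binding partners of YAP and TAZ. TEAD1 (ENSG00000187079, chr11:12674421-12944737, plus strand) had 142, 137, 125 and 131 CPM in Clone 28 with DMSO and 132, 118, 127 and 124 with dTAG-13. In Clone 35 TEAD1 had 146, 128, 128 and 135 CPM in DMSO and 130.2, 127, 133 and 134 with dTAG-13. In Clone 39 it had 240.5, 218, 221 and 214 CPM in DMSO and 219, 202, 219 and 215 with dTAG-13. The treated mean lay lower in each clone but the ranges overlapped, and 9 of 12 pairs were lower. The log2 difference of TEAD1 was −0.06 (−0.13 to 0.00), which did not pass the test (edgeR adjusted p = 0.83, and 0.442 with the pairs as a block). TEAD3 (ENSG00000007866, chr6:35473597-35497079, minus strand) differed by −0.05 (−0.15 to 0.05), with 3 of 12 pairs higher. TEAD4 (ENSG00000197905, chr12:2959330-3040676, plus strand) differed by −0.05 (−0.16 to 0.05), with 4 of 12 pairs higher.

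VGLL4 encodes a cofactor that competes with YAP for TEAD proteins and so opposes YAP. VGLL4 (ENSG00000144560, chr3:11556069-11771350, minus strand) had the narrowest interval of the 9 genes, with a log2 difference of 0.00 (−0.05 to 0.06) and 7 of 12 pairs higher. LATS2, which encodes a kinase that phosphorylates YAP and is itself a YAP target (ENSG00000150457, chr13:20973036-21061586, minus strand), differed by −0.04 (−0.12 to 0.04), with 4 of 12 pairs higher.

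AMOTL2 encodes an angiomotin family protein that binds YAP and holds it at junctions. AMOTL2 (ENSG00000114019, chr3:134355347-134375479, minus strand) had 153, 167, 144 and 133 CPM in Clone 28 with DMSO and 134, 146, 149 and 127 with dTAG-13. In Clone 35 AMOTL2 had 161, 147, 152 and 136 CPM in DMSO and 155, 146, 142 and 129 with dTAG-13. In Clone 39 it had 132, 138, 143 and 125 CPM in DMSO and 137, 137, 136 and 125 with dTAG-13. The treated library was lower in 10 of 12 pairs, the most of any of the 9 genes, and 7.51% of all tested genes had at least 10 of 12 pairs in 1 direction. The ranges overlapped in each clone, and the log2 difference was −0.05 (−0.14 to 0.03, adjusted p = 0.968). The pseudogene RPL39P5 lies within AMOTL2 on the same strand and was counted apart, with 152 to 417 counts per library, and how reads shared by both entries were counted is not given in the sources used here.

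CCN1 encodes a secreted matricellular protein and had the highest signal per kb of the 10 genes, though not the highest CPM. CCN1 (ENSG00000142871, chr1:85580761-85584589, plus strand) had 53.7, 59.3, 50.1 and 48.3 CPM in Clone 28 with DMSO and 47.1, 51.6, 45.8 and 46.9 with dTAG-13. In Clone 35 CCN1 had 63.4, 55.0, 52.9 and 47.6 CPM in DMSO and 54.6, 53.8, 58.6 and 52.7 with dTAG-13. In Clone 39 it had 85.2, 102, 95.6 and 85.1 CPM in DMSO and 87.9, 91.7, 92.4 and 89.8 with dTAG-13. The control values spread more widely than the treated ones in each clone and contained or overlapped them, and 8 of 12 pairs were lower. The log2 difference of CCN1 was −0.04 (−0.14 to 0.05).

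Within single clones none of the 9 genes passed the test either (0 by edgeR and 0 by DESeq2 in each of Clones 28, 35 and 39, and 0 with an unadjusted p under 0.05 by edgeR). All genes were called at 0.0537% in Clone 28, and at 0% in Clones 35 and 39, where DESeq2 called 1 gene each. With the pairs as a block 0 of the 9 were called in each clone, against 1.18%, 0.0941% and 0.0717% of all genes. Differences ranged from −0.14 for CCN1 in Clone 28 (−0.31 to 0.02) to 0.08 for YAP1 in Clone 35 (−0.07 to 0.22). These intervals came from the fit without pairs. By replicate number, the CCN1 pair differences in Clone 28 were all below 0, at −0.19, −0.20, −0.13 and −0.04. They were −0.21, −0.03, 0.14 and 0.14 in Clone 35, and 0.04, −0.15, −0.05 and 0.08 in Clone 39. For none of the 9 genes were the treated and control ranges apart in any clone, while this held for 2.97% of all tested genes in Clone 28, 2.36% in Clone 35 and 2.14% in Clone 39. The treatment difference did not differ between clones for any of the 9 genes (0 calls among them and 0% over all genes by edgeR, 0 by DESeq2, 0 against 0.00448% with the block, and 407 of all genes with an unadjusted p under 0.05). The intervals for the 3 clones together lay between −0.16 and 0.11.

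**Figure D2:**
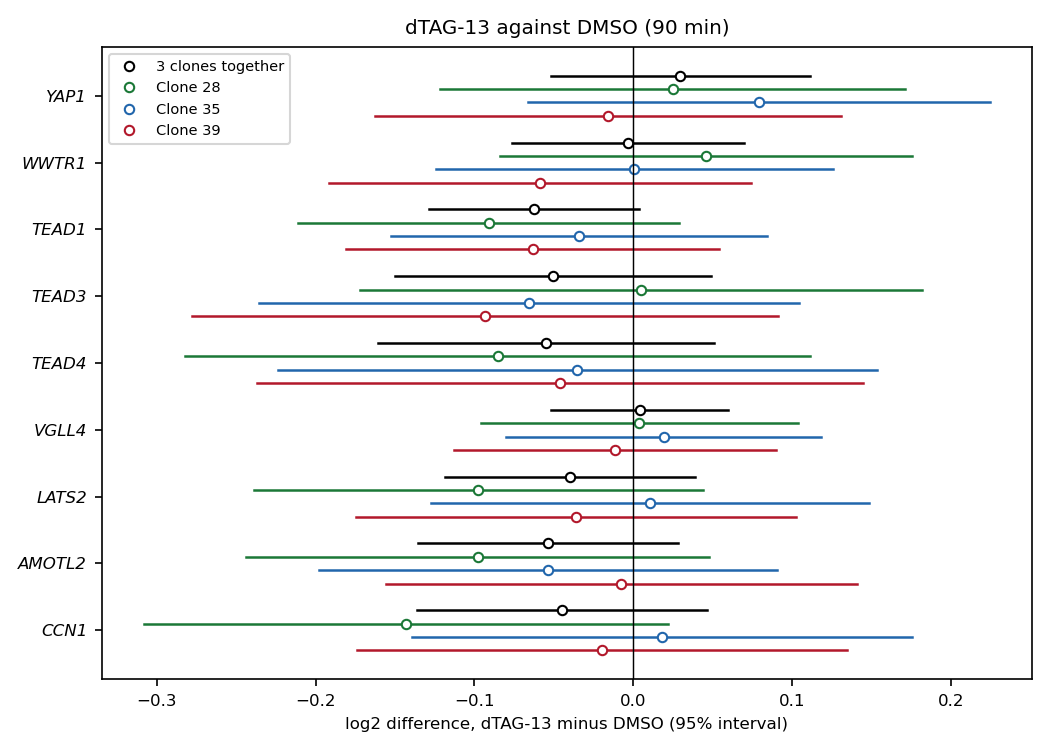
Log2 difference between dTAG-13 and DMSO for the 9 tested genes, for the 3 clones together and for each clone, with 95% intervals from the edgeR fits. Open points did not pass an adjusted p of 0.1, and all points are open. The intervals of the 3 clones together lie between −0.16 and 0.11.

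Other genes of the pathway were read from lists by role. Of 17 tested genes of the kinase core and its scaffolds, such as STK3, SAV1 and NF2, 0 were called by edgeR and 0 of 16 by DESeq2, and 2 had an unadjusted p under 0.05. With the pairs as a block TAOK3 and WWC3, an upstream kinase and a scaffold gene, were higher by 0.15 and 0.12 on the log2 scale (adjusted p = 0.00108 and 0.00148), where 1.4% of all genes were called higher. Of 12 tested partners or inhibitors of YAP and TEAD 0 were called by edgeR and 0 of 9 by DESeq2, and 2 had an unadjusted p under 0.05. Of 14 tested further YAP and TAZ target genes 1 was called, TGFB2, which encodes a transforming growth factor ligand.

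TGFB2 rose with dTAG-13. In Clone 28 it had 40.8, 35.6, 32.1 and 39.7 CPM in DMSO and 41.8, 44.7, 50.6 and 41.9 with dTAG-13, with no overlap. In Clone 35 TGFB2 had 36.5, 33.7, 34.3 and 36.4 CPM in DMSO and 38.7, 33.5, 40.7 and 40.2 with dTAG-13, with overlap through 1 treated library. In Clone 39 it had 86.8, 78.0, 85.8 and 75.5 CPM in DMSO and 87.7, 91.1, 100.5 and 88.1 with dTAG-13, again with no overlap. The log2 difference was 0.19 ± 0.05 (SE, adjusted p = 0.0661), with 11 of 12 pairs higher, where 2.32% of all genes had at least 11 pairs in 1 direction. Among all genes 0.358% were called higher and 0.193% lower. Of the 14 target genes 10 had a difference above 0, with a median of 0.11, where 49.0% of all genes lay above 0. With the pairs as a block CRIM1 and MYOF were also called, higher by 0.11 and 0.10 (adjusted p = 0.0135 and 0.00596). The call of TGFB2 was held by DESeq2 but lost when any 1 of 9 libraries was left out (adjusted p = 0.107 to 0.145), namely Clone 28 DMSO replicates 2 and 3, Clone 28 dTAG-13 replicates 2 and 3, Clone 35 DMSO replicate 3, Clone 35 dTAG-13 replicate 3, Clone 39 DMSO replicates 2 and 4, and Clone 39 dTAG-13 replicate 3. It was also lost without Clone 28 (log2 difference 0.15, adjusted p = 0.989), without Clone 35 (0.22, adjusted p = 0.255) and without Clone 39 (0.20, adjusted p = 0.424). Of the 9 immediate early genes, such as FOS, JUN and EGR1, 0 were called by edgeR and 0 by DESeq2, and 1 had an unadjusted p under 0.05. Of the 9 luminal marker genes 1 was called, KRT19, which encodes a keratin of simple epithelium and fell by 0.13 on the log2 scale (adjusted p = 0.0346), with 11 of 12 pairs lower. The KRT19 call was lost without Clone 28 (log2 difference −0.10), without Clone 35 (−0.15) and without Clone 39 (−0.15).

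The second comparison asked how these genes differed between the clones without dTAG-13. In DMSO 6 of the 9 genes differed between clones (edgeR F test, adjusted p under 0.1), against 28.5% of all genes. They were CCN1, TEAD1, TEAD4, LATS2, VGLL4 and WWTR1. CCN1, TEAD1, TEAD4 and LATS2 were higher in Clone 39 than in both other clones, VGLL4 was lower in Clone 39, and WWTR1 was higher in Clone 35. In bulk libraries more transcribing cells and more polymerases per cell cannot be told apart.

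CCN1 differed most. Its DMSO mean was 91.9 ± 8.17 CPM (SD, n = 4) in Clone 39, 52.9 ± 4.83 in Clone 28 and 54.7 ± 6.59 in Clone 35. The 4 values of Clone 39, listed above, lay above all 8 of the other clones. The log2 difference was −0.79 for Clone 28 against Clone 39 (−0.95 to −0.64, 1.73-fold higher in Clone 39, adjusted p = 1.10e-09) and −0.75 for Clone 35 against Clone 39 (−0.91 to −0.60, adjusted p = 2.31e-09). Clones 28 and 35 differed by −0.04 (−0.20 to 0.12).

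TEAD1 followed the same order of clones. Its DMSO mean was 223 ± 11.7 CPM in Clone 39, 133 ± 7.44 in Clone 28 and 134 ± 8.71 in Clone 35, and the ranges of Clone 39 and the others did not overlap. The log2 difference was −0.74 for Clone 28 against Clone 39 (−0.86 to −0.63, 1.68-fold, adjusted p = 6.20e-12) and −0.73 for Clone 35 (−0.85 to −0.62, adjusted p = 8.50e-12).

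TEAD4 (57.7, 60.1, 61.3 and 64.2 CPM in Clone 28, 63.4, 56.5, 73.7 and 64.8 in Clone 35, and 73.8, 89.1, 94.3 and 90.9 in Clone 39) was 1.43-fold higher in Clone 39 than in Clone 28 (log2 difference −0.51, −0.71 to −0.32, adjusted p = 1.17e-04). The lowest Clone 39 value of TEAD4 lay just above the highest of Clone 35. LATS2 had 60.4, 74.2, 71.0 and 79.7 CPM in Clone 28, 67.5, 71.9, 71.9 and 66.2 in Clone 35, and 98.6, 97.8, 101 and 93.3 in Clone 39. LATS2 differed by −0.45 between Clones 28 and 39 (−0.59 to −0.31, adjusted p = 5.67e-06) and by −0.49 between Clones 35 and 39 (−0.63 to −0.35, adjusted p = 9.66e-07), with no overlap. The antisense gene LATS2-AS1, which covers 14.6% of LATS2, had at most 3 counts in a library. TEAD3, the TEAD gene with the highest signal per length, differed by 0.01 between Clones 28 and 39 (−0.17 to 0.19) and by 0.09 between Clones 35 and 39 (−0.08 to 0.27), and was not called.

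VGLL4 went the other way. It had 268, 275, 263 and 277 CPM in Clone 28, 284, 266, 281 and 274 in Clone 35, and 209, 196, 207 and 202 in Clone 39, so that Clone 39 lay below all other values. The log2 difference was 0.41 for Clone 28 against Clone 39 (0.31 to 0.51, adjusted p = 6.00e-08) and 0.44 for Clone 35 against Clone 39 (0.34 to 0.54, adjusted p = 1.69e-08). Beside this, the genes around VGLL4 moved too: the 12 tested genes within 1 Mb that do not overlap it had a median difference of 0.41 and 0.40 in these comparisons, and 7 of the 12 were called higher in each, against 14.3% and 12.9% of all genes. ATG7 overlaps the end of VGLL4 on the other strand over 0.742% of its length, and whether strand was used in counting is not given in the sources used here.

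WWTR1 separated Clone 35. It had 94.7, 106, 89.7 and 89.8 CPM in Clone 28, 122, 118, 115 and 119 in Clone 35, and 96.0, 96.8, 86.4 and 90.5 in Clone 39. WWTR1 was higher in Clone 35 than in Clone 28 by 0.31 on the log2 scale (difference −0.31 for Clone 28 against Clone 35, −0.44 to −0.19, adjusted p = 0.00171) and than in Clone 39 by 0.35 (0.23 to 0.48, adjusted p = 6.08e-05). Clones 28 and 39 differed by 0.04 (−0.09 to 0.17). The antisense gene WWTR1-AS1, with 38 to 153 counts in a library, overlaps WWTR1 over 1.99% of its length. The 22 tested neighbours of WWTR1, defined in the same way, had a median difference of 0.58 between Clones 28 and 39, with 15 called higher in Clone 28, and of 0.68 between Clones 35 and 39, with 19 called higher in Clone 35, so that WWTR1 lay below its neighbours in both.

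AMOTL2, also on chromosome 3, differed by 0.15 between Clones 28 and 39 and by 0.15 between Clones 35 and 39 (0.00 to 0.30 and 0.00 to 0.29), while its 20 neighbours had medians of 0.36 and 0.44. Of these neighbours 12 and 13 were called higher and 1 lower in each. Around CCN1 the 16 neighbours had medians of −0.09 between Clones 28 and 39 and −0.03 between Clones 35 and 39, with 3 called lower and 1 higher in each. The 7 neighbours of TEAD1 had medians of 0.07 and −0.13, with 2 lower and 1 higher in each. The 20 neighbours of TEAD4 had medians of 0.18 and 0.17, on the other side of 0 from TEAD4, with 0 and 1 called lower and 2 and 3 higher. The 18 neighbours of LATS2 lay on the same side of 0 as LATS2, with medians of −0.15 and −0.16, and 3 and then 6 of them were called lower and 0 higher, against 12.4% and 9.64% of all genes called lower. YAP1 differed by −0.14 and −0.04 in these comparisons, and its 18 neighbours had medians of −0.16 and −0.07. Of those 18, 6 and 4 were called lower and 1 higher in each. What part the surrounding region has in the clone differences was not tested for any of these genes.

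YAP1 and AMOTL2 were not called between clones in this fit (adjusted p = 0.344 and 0.203), but both were with the replicate number as a block (adjusted p = 0.0255 and 0.0204), which raised the count to 8 of 9 genes, against 39.7% of all genes. YAP1 was also called without the block when the clones were compared over both treatments (adjusted p = 0.081). With the block YAP1 was lower in Clone 28 than in Clone 39 by 0.14 on the log2 scale (difference −0.14, adjusted p = 0.0118), and AMOTL2 was higher in Clones 28 and 35 than in Clone 39 by 0.15 each (adjusted p = 0.0191 and 0.0232), where 35.2% and 30.5% of all genes were called. AMOTL2 was also called without the block when Clone 28 DMSO replicate 4 was left out (adjusted p = 0.0891). By pairs of clones, 5 of the 9 genes differed between Clones 28 and 39 (26.7% of all genes), 6 between Clones 35 and 39 (22.6%), and 1, WWTR1, between Clones 28 and 35 (5.25%). The same genes had DMSO ranges that did not overlap in these pairs, against 20.8%, 19.9% and 8.55% of all genes. The comparisons share the clones between them, so they are not independent of each other.

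**Figure D3:**
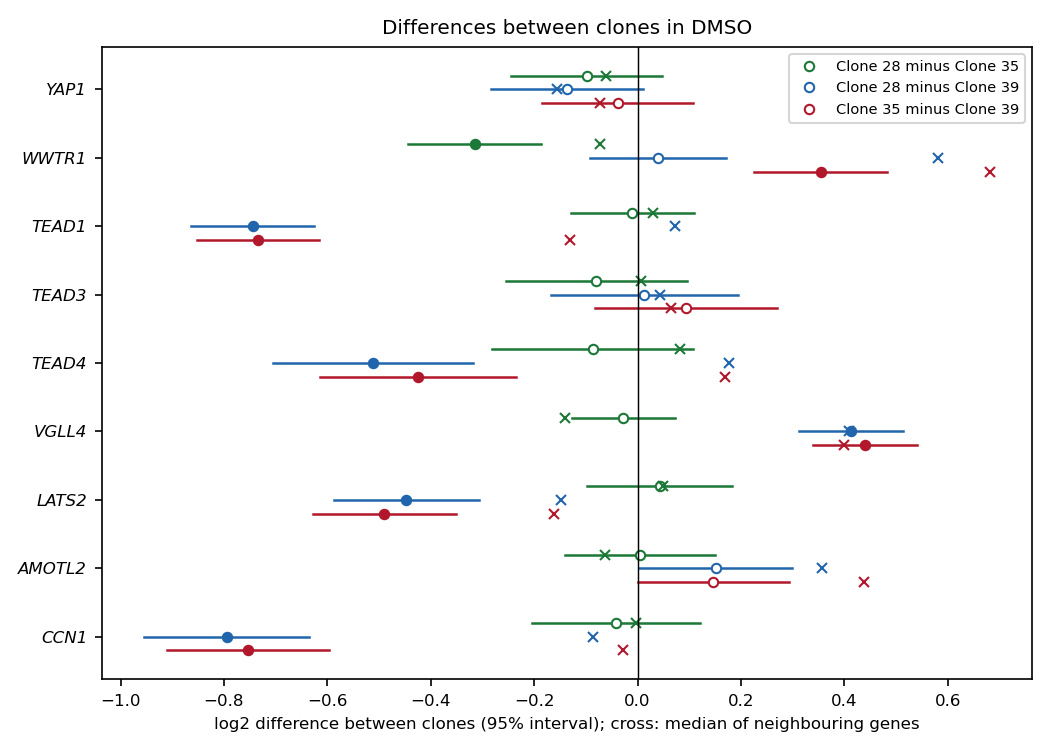
Log2 differences between clones in DMSO for the 9 tested genes, with 95% intervals from the edgeR fit. Filled points passed an adjusted p of 0.1, and crosses give the median difference of the tested genes within 1 Mb of each gene. CCN1, TEAD1, TEAD4 and LATS2 lie below 0 against Clone 39, with crosses at −0.16 to 0.18, while VGLL4 lies at 0.41 and 0.44 on top of its neighbours.

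The other lists also separated Clone 39. Of the 14 tested further YAP and TAZ target genes, ANKRD1 passed the filter on low counts only through the Clone 39 libraries and was left out of the counts that follow. Of the other 13, 7 were lower in Clone 28 than in Clone 39 and 0 were higher, with a median of −0.36, where 12.4% of all genes were lower and 14.3% higher. In Clone 35, 6 were lower than in Clone 39 and 1, CCDC80, was higher, with a median of −0.31, where 9.64% of all genes were lower and 12.9% higher. TGFB2 had a DMSO mean of 81.5 ± 5.63 CPM in Clone 39, 37.0 ± 3.99 in Clone 28 and 35.2 ± 1.42 in Clone 35, and differed by −1.14 and −1.21 (adjusted p = 1.01e-12 and 1.85e-13). CRIM1, which encodes a transmembrane growth factor antagonist, had 319 ± 38.5, 125 ± 17.2 and 152 ± 20.6 CPM in the same order and differed by −1.36 and −1.07. ANKRD1, a classical YAP target, had 13, 9, 10 and 14 counts in the DMSO libraries of Clone 39, against 0, 0, 0 and 1 in Clone 28 and 1, 1, 3 and 2 in Clone 35, and these counts are given as a description.

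Of the 12 tested partners or inhibitors, VGLL3 was likewise left out, having passed the filter only through Clone 39. Of the other 11, 6 were lower and 1 higher in Clone 28 than in Clone 39, and 3 were lower and 1 higher in Clone 35, against the same shares of all genes (12.4% and 9.64% lower, 14.3% and 12.9% higher). With VGLL3 counted in, 5 of the 12 were called in Clone 35 against Clone 39. That count was 8 when the clones were compared over both treatments, where 7633 of all 22326 genes were called. Both counts are a check on the setting only, since VGLL3 passed the filter through Clone 39. The genes called lower than in Clone 39 included PTPN14, which encodes a phosphatase that restrains YAP (523 ± 19.3 CPM in Clone 39, 361 ± 23.2 in Clone 28 and 383 ± 20.3 in Clone 35), and WTIP, a LIM domain gene (53.5 ± 2.04, 29.1 ± 2.54 and 30.5 ± 0.793 CPM). Of the 17 kinase core and scaffold genes, 6 were lower and 2 higher in Clone 28, and 7 lower and 1 higher in Clone 35, read against those shares. The 8 called in Clone 35 fell to 5 with no filter on low counts. Among them was FRMD6, a scaffold gene of the upstream kinases (34.5 ± 2.84 CPM in Clone 39, 17.1 ± 3.67 in Clone 28 and 17.0 ± 0.986 in Clone 35). Genes called higher in Clone 39 included both targets of YAP and restraints on it. Of the immediate early genes 2, ATF3 and FOSB, were higher in Clones 28 and 35 than in Clone 39 and the other 7 were not called. These 2 of 9 lay near the share of all genes called, 26.7% and 22.6%. The count in Clone 28 was 5 over both treatments, where the calls among all 22326 genes also rose, from 5959 to 8947.

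Markers and depth also differed between the clones. Of the 9 luminal markers 5 were called between Clones 28 and 39, with GATA3, KRT8 and KRT18 lower in Clone 39 and the other 2 higher, and 5 were called between Clones 35 and 39, again 3 lower and 2 higher in Clone 39, where 26.7% and 22.6% of all genes were called. KRT8 and KRT18 were lower in Clone 39 than in Clone 28 by 0.45 and 0.57 on the log2 scale (adjusted p = 4.76e-05 and 3.38e-06). The list as a whole did not shift in 1 direction. Over the 9 luminal genes the median log2 difference was 0.05 for Clone 28 and −0.02 for Clone 35 against Clone 39. The summed level of the 9 luminal genes in DMSO was 4605 to 5921 CPM in Clone 28, 3607 to 4594 in Clone 35 and 4381 to 5369 in Clone 39, so that Clone 39 overlapped both others. The 6 basal or mesenchymal genes summed to 20.7 to 25.4, 22.8 to 26.9 and 14.2 to 20.3 CPM in the same order. Most of that sum was TP63, with a mean of 13.7 CPM over all libraries against at most 4.42 for the other 5 genes, and TP63 was lower in Clone 39 by 0.78 and 1.11 on the log2 scale against Clones 28 and 35 (adjusted p = 2.42e-04 and 5.18e-07). Of the 3 tested genes of this list, ZEB1 went the other way. It was called higher in Clone 39 than in Clone 35 (log2 difference −0.53, edgeR adjusted p = 0.0926). ZEB1 was not called against Clone 28 (−0.31, edgeR adjusted p = 0.367), and CDH2 was called in neither comparison. The 3 fibroblast genes summed to 10.7 to 13.9, 10.7 to 16.4 and 15.2 to 16.6 CPM, most of it COL1A1 with a mean of 12.2 CPM. PTPRC of leukocytes had 1.37 to 4.12 CPM over the DMSO libraries and was higher in Clone 39 (log2 differences −0.69 and −0.68 for Clones 28 and 35 against it, edgeR adjusted p = 0.0806 and 0.0770), and PECAM1 of endothelium had 0.599 to 2.01 CPM. Clone 39 also had the shallowest libraries, and the part of depth or of these markers in the clone differences was not tested.

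The third comparison asked whether the genes followed the replicate number, which marks cells treated and collected at different times within a day. The number pairs a treated with a control library within a clone, and whether the same number marks the same hour in all clones is not given in the sources used here. In a fit with the 6 groups and the number, 7 of the 9 genes differed between numbers (edgeR F test, adjusted p under 0.1), against 37.2% of all genes. LATS2 and VGLL4 were not called (adjusted p = 0.416 and 0.787).

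YAP1 had the lowest p (adjusted p = 3.99e-06). Its libraries of numbers 1 and 2 lay above the mean of their own group in 6 of 6 cases each, and those of numbers 3 and 4 in 0 of 6 each. The mean deviations on the log2 scale were 0.08, 0.09, −0.09 and −0.07 for numbers 1 to 4. WWTR1 was above its group mean in 5, 4, 0 and 2 of 6 libraries (adjusted p = 0.0197), with mean deviations of 0.06, 0.05, −0.08 and −0.03. Both coactivator genes thus lay lower at numbers 3 and 4.

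TEAD4 and TEAD3 ran opposite to YAP1. TEAD4 was above its group mean in 0, 1, 5 and 5 of 6 libraries for numbers 1 to 4 (adjusted p = 1.19e-04), with mean deviations of −0.14, −0.05, 0.10 and 0.09. TEAD3 was above in 1, 2, 4 and 6 of 6 (adjusted p = 0.0336). TEAD1 was above in 5, 1, 3 and 3 of 6 (adjusted p = 0.0823).

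Of the output genes, AMOTL2 was low at number 4, where 0 of 6 libraries lay above their group mean and the mean deviation was −0.13 (adjusted p = 4.15e-04). CCN1 was likewise above in 0 of 6 libraries at number 4 and in 5 of 6 at number 2 (adjusted p = 0.0855). The largest mean deviation of any gene was 0.14 below the group means (−0.14), for TEAD4 at number 1, and the largest treatment difference over the 3 clones was −0.06, for TEAD1. The call of CCN1 was lost when any 1 of 10 libraries was left out (adjusted p = 0.101 to 0.286), namely Clone 28 DMSO replicates 2 and 4, Clone 28 dTAG-13 replicates 1 and 2, Clone 35 replicate 4 of either treatment, Clone 39 DMSO replicates 2, 3 and 4, and Clone 39 dTAG-13 replicate 3. That of TEAD1 was lost with any 1 of 7 (adjusted p = 0.121 to 0.217), namely Clone 28 replicate 1 of either treatment, Clone 28 dTAG-13 replicate 2, Clone 35 DMSO replicates 1 and 2, Clone 39 DMSO replicate 1 and Clone 39 dTAG-13 replicate 2. The calls of TEAD1, CCN1 and TEAD3 were also lost with DESeq2 (adjusted p = 0.164, 0.289 and 0.199), which called 4 of the 9. Collection time and anything else that went with the number cannot be told apart.

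**Figure D4:**
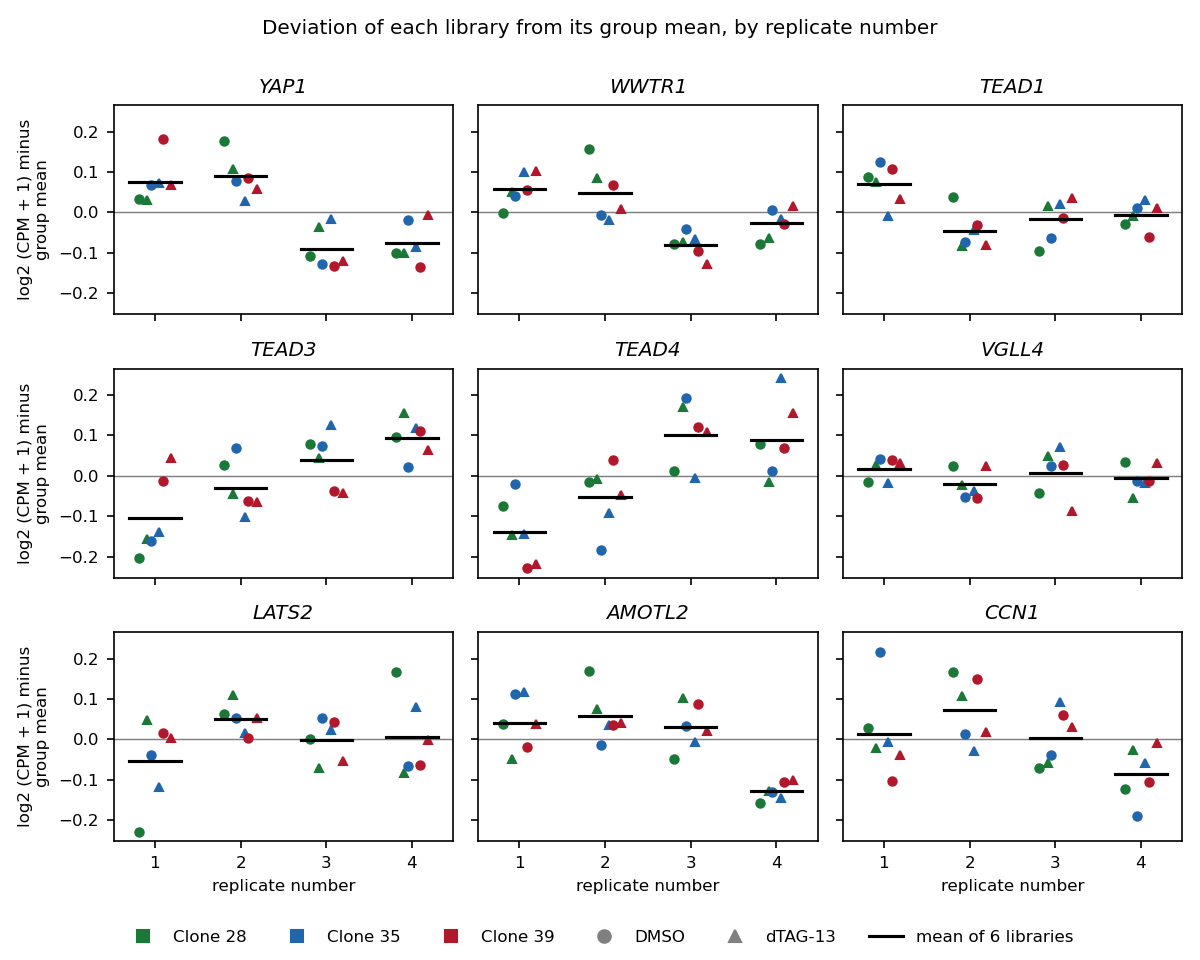
Deviation of log2(CPM + 1) of each library from the mean of its group of 4, by replicate number, for the 9 tested genes. Colours give the clone, shapes the treatment, and bars the mean of 6 libraries. YAP1 lies above 0 at numbers 1 and 2 and below 0 at numbers 3 and 4 in all 6 libraries each, TEAD4 runs the opposite way, and AMOTL2 is low at number 4.

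Among the genes themselves, the deviations from the group means over the 24 libraries were most alike for YAP1 and WWTR1 (Pearson's r = 0.84) and for AMOTL2 and CCN1 (r = 0.67), and most opposed for YAP1 and TEAD4 (r = −0.67). These are descriptions over libraries that differ in collection time and depth, and the replicate number accounts for part of the deviations by the tests above. Of all tested genes, those most like YAP1 were PHIP (r = 0.94), NIPBL (0.93) and ROBO1 (0.93). Those most like CCN1 were ANKRD26 (0.89), GOLGA5 (0.78) and FGF7P3 (0.78), and those most like AMOTL2 were PREX1 (0.81), MTCO1P53 (0.78) and STC2 (0.78). None of these is among the lists of Hippo genes above. CCN2 was not compared in this way, having failed the filter.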

How the data were processed

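PRO-seq libraries from 3 dTAG-TRPS1 clones of T47D, 4 replicates each of DMSO and dTAG-13, were analysed from the deposited table of raw counts per gene. According to the paper's methods and the submitters' processing notes, the authors trimmed adapters with cutadapt 1.8.1, collapsed duplicates by the molecular identifier on the 3′ adapter (fqdedup), took the reverse complement (seqtk), discarded ribosomal DNA reads, aligned the rest to hg38 with Bowtie2 2.4.4 and SAMtools 1.9, and counted them per gene with bedtools. The gene annotation and strand setting of that counting are not given in the sources used here. All 24 count columns belong to samples of the series.

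Symbols and coordinates came from GENCODE release 44, which named 60463 of the 60605 genes, and promoter windows from RefSeq. The test was edgeR 4.0.16 (R 4.3.3), with TMM scaling, filterByExpr at a minimum count of 10, robust quasi-likelihood fits, and Benjamini-Hochberg adjustment over the 22326 genes tested (threshold 0.1). The 3 clones together were fitted with clone and treatment (20 residual degrees of freedom), single clones and clone differences with the 6 groups (18), and replicate numbers with the groups and the number (15). CPM values are scaled by TMM. Pair differences used log2(CPM + 1). Likeness used Pearson's r of log2 CPM (prior count 2) after removal of group means. Poisson intervals (95%) cover counting error only, and molecular identifiers were used. Replicate libraries differed by more than sampling noise in every pair within a group (chi-square over its degrees of freedom from 1.65 to 13.6).

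The members and lists were chosen with earlier results of these data known. Named were all 10 members, in each other list up to 4 called genes with the smallest p per comparison, and the 3 genes most like CCN1, YAP1 and AMOTL2. The marker lists were luminal, basal or mesenchymal, fibroblast, leukocyte and endothelial. KRT19, KRT8, KRT18, GATA3, TP63, ZEB1, CDH2, VGLL3 and the genes the paired fit called were named after their values were seen.

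Per the labels and methods, replicates were treated and collected at different times of 1 day, with the control and treated cells of a number collected together, so the number pairs them. The correlation of paired deviations from the group means was 0.0926 to 0.318 over the 12 pairs. Alternatives were another scaling (RLE, library totals), no filter or at least 10 counts in every library, a threshold of 0.05, DESeq2 1.42.0, the replicate block, both treatments for the clone comparison, a single treatment for the numbers, and leaving out each clone and each library. The tests were checked on simulated counts with known changes.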

Additional observations from a re-analysis of the deposited data

Results flagged for a closer look

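In the 54 groups of 4 libraries made by the 9 tested genes, 2 libraries stood far from the other 3 of their group, by a gap to the nearest library that took up most of the group's range (Dixon's test). Chance flags about 1 in 20 groups, or 2.7 of these 54. VGLL4 had 189.9 CPM in Clone 39 dTAG-13 replicate 3, where the other 3 libraries had 205 to 206 CPM, a gap of 0.925 of the range. AMOTL2 had 124.6 CPM in Clone 39 dTAG-13 replicate 4, where the others had 136 to 137 CPM, a gap of 0.848 of the range. At replicate number 4, AMOTL2 lay below its group mean in all 6 groups. Leaving out either library brought no treatment call for either gene.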

How the results depend on the processing

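None of the treatment counts among the 9 genes changed under any setting: 0 were called with the other scalings, filters, threshold, DESeq2, the replicate block, and without any clone or library. The clone counts also kept to within 1.5 times, at 6 to 8 of 9 under the settings and 6 to 7 without single libraries (5 to 6 for Clone 28 against Clone 39, 6 to 7 for Clone 35 against Clone 39, and 1 for Clone 28 against Clone 35). The replicate number count was 7, and it fell to 4 with library totals only, 4 with no filter on low counts, 4 with DESeq2, 3 in the dTAG-13 libraries only, 3 without Clone 28, 4 without Clone 35 and 4 without Clone 39, and was 5 to 7 without single libraries, and the cause was not tested. Besides TEAD1 and CCN1, the number call of WWTR1 was lost in 6 settings (adjusted p = 0.103 to 0.311) and that of TEAD3 in 5 (0.182 to 0.381). The signs of 2 treatment differences near 0 turned: WWTR1 was 0.0242 without Clone 39 and −0.0145 to 0.0106 without single libraries, and VGLL4 was −0.00281 without Clone 35 and −0.00390 to 0.0131 without single libraries.

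With the pairs as a block, the treatment count over all genes went from 123 to 521, and from 12 to 263 in Clone 28, 0 to 21 in Clone 35 and 0 to 16 in Clone 39, with 0 of the 9 genes called in each. The block moved the clone calls of YAP1 (also gained over both treatments, adjusted p = 0.081) and AMOTL2 and the list calls given above, and it changed no other call of the 9 genes. Over all genes the treatment count was 197 with no filter, 160 with DESeq2, 64 at a threshold of 0.05, 1 without Clone 28, 37 without Clone 35 and 37 without Clone 39, and 66 to 149 without single libraries. It was under 82 without Clone 28 DMSO replicate 3 (78) or 4 (66), Clone 28 dTAG-13 replicate 1 (75) or 2 (67), Clone 35 dTAG-13 replicate 3 (77) or Clone 39 DMSO replicate 3 (80). In Clone 28 it was 2 to 28 without single libraries, 87 with no filter, 34 with DESeq2, 22 with library totals, 23 with 10 counts in every library, 7 with RLE size factors and 4 at a threshold of 0.05. Clones 28 and 35 differed in 1173 genes, 2664 with the block and 2946 over both treatments. The clone test called 6361 genes, and 9714 over both treatments. The replicate number test called 8306 genes, 4321 in the dTAG-13 libraries only, 5251 without Clone 28, and 5239 with DESeq2.

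Depth limited CCN2, which could not be tested, and differences between clones rest on 1 line each. The intervals of the 9 treatment differences reached at most 0.16 from 0, so changes up to that size remain possible. RLE and library totals moved the mean scaling of the dTAG-13 libraries against the DMSO libraries by less than 0.01 on the log2 scale.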
